A study of Mus musculus with 8 samples.

Results

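The genes described here are 10 surface and identity genes of blood stem and progenitor cells, Cd34, Prom1, Kit, Flt3, Ly6a, Cd48, Slamf1, Procr, Hopx and Spink2. They were measured in spleen cells of leukemic mice. The set was chosen by gene symbol, with the genotype differences of these same arrays already known. The size and direction of each difference between the genotypes below are therefore a description and carry no support of their own. Of the 10 genes, 9 had at least 1 probe set under their symbol in the platform annotation, 13 probe sets in all, and Ly6a was not analysed here. Of these 9 genes, 8 passed the filter on dim genes, which kept 11417 of 18193 genes on the array. Procr did not pass.

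Biotin-labelled RNA was measured on 8 Affymetrix mouse arrays. Both groups carried a form of CBFb-SMMHC, a leukemia fusion of CBFb, the partner of RUNX1 in core-binding factor, with part of a smooth muscle myosin. The truncated group was made up of chimeric mice with CBFb-SMMHCd179-221, a form that lacks part of the fusion and binds RUNX1 less tightly, per the series title, and was leukemic at 3 weeks after birth. The full-length group carried CBFb-SMMHC, was called knock-in in the series text and chimera in the sample labels, and was sampled 2 months after the mutagen ENU. Each group had 2 animals, of which animal 1 was hybridised to 1 array and animal 2 to 3. Age, mutagen and the form of the fusion cannot be told apart, and in a chimera the share of spleen cells that carry the fusion is not known here. No healthy spleen is part of the comparison. Values are log2 expression after RMA, a method that corrects background, equalises the distribution of the arrays and summarises probes. Differences are truncated minus full-length on that scale.

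Blood stem and progenitor cells are recognised by combinations of surface proteins. In the mouse, KIT marks stem and early progenitor cells, and FLT3 and CD34 appear as stem cells turn into multipotent progenitors. SLAMF1 (CD150) without CD48 is the classical signature of long-term stem cells, and CD48 is gained on the way to committed progenitors and kept on most leukocytes. PROCR marks stem cells and endothelium. HOPX, a small homeodomain protein that does not bind DNA, and SPINK2, a serine protease inhibitor, are known from human acute myeloid leukemia as genes that mark an immature expression profile.

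Before the genes themselves, the arrays have to be set against their labels. In the truncated group the root mean square difference over all probe sets was 0.362 log2 units between the first arrays of both animals, but 0.484 and 0.485 between array 1 of animal 2 and arrays 2 and 3 of the same animal. The full-length group had 0.329 for the first pair and 0.667 and 0.676 for the others. Arrays 2 and 3 differed by 0.17 in each genotype. The arrays numbered 1 of the labelled animals 1 and 2 were thus closer to each other than array 1 was to the other arrays of its own labelled animal. Whether array 1 of animal 2 came from that animal was not tested, so the difference is given below over the animal means and also within the arrays numbered 1 and within arrays 2 and 3 of animal 2. Arrays 2 and 3 hold 1 animal per genotype. The 18S ribosomal control also stood apart, at 9.64 on the array of truncated animal 1, against 4.60 to 5.07 on the other truncated arrays, and at 8.11 in full-length animal 1, against 4.45 to 4.86 on the other full-length arrays. On the arrays of animal 1 the Actb control differed most between its 3' and 5' probe sets, by 1.02 in the truncated and 0.81 in the full-length group, with 0.33 to 0.58 on the other 6 arrays. The Gapdh control did not follow this. Its 3' minus 5' difference was -0.17 and -0.19 on the arrays of animal 1 and -0.19 to 0.28 on the other 6.

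Among the 8 genes past the filter, 6 were higher in truncated animals and 2, Kit and Slamf1, were lower. Spink2, Hopx, Flt3 and Prom1 were higher on every truncated array than on any full-length array. Cd34 and Cd48 were higher on the arrays numbered 1 and close to level on arrays 2 and 3. Kit and Slamf1 differed more between array numbers than between genotypes. The median difference of the 8 genes was 1.78, beside -0.01 over all genes tested, and 48.5% of all genes tested were higher in truncated animals.

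**Figure D1:**
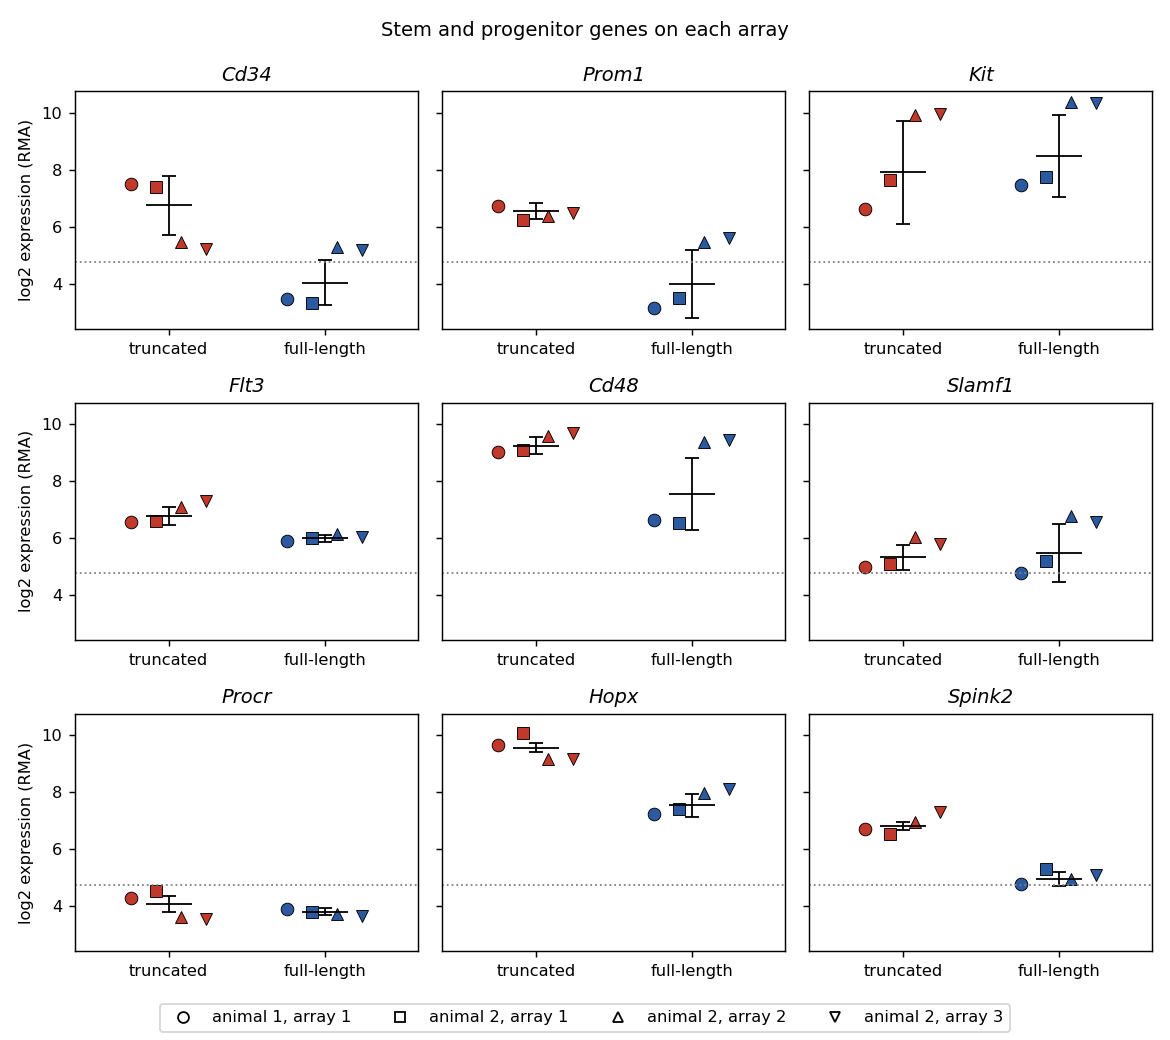
Log2 expression of the 9 genes with a probe set (brightest probe set of each) on every array, truncated on the left and full-length on the right of each panel. Symbols give animal and array, horizontal bars and whiskers the mean ± SD over 2 animals, and the dotted line the median of all values; Spink2, Hopx, Flt3 and Prom1 show no overlap between the genotypes.

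RUNX1, the partner that the truncated fusion binds less tightly, recognises a short DNA motif, so the promoters of the set were searched for TGTGGT and TGCGGT on both strands in the 250 bases before each start site. RefSeq promoters of GRCm38.p6 were matched for 9 of the 10 symbols, 14 start sites in all. The motif was found in 4 of these 14 promoters, in 1 promoter each of Cd48, Prom1, Hopx and Flt3, beside 18.6% of all 32851 promoters. The 4 promoters are shown because they hold these letters and their genes were all higher on average in truncated animals. Cd34 and Spink2, which were also higher, and Kit and Slamf1, which were lower, had no match in their windows. Whether motif and direction go together was not tested. Capitals mark the motif or its reverse complement, and each sequence runs 5' to 3' on the strand of its gene. The Cd48 promoter is chr1:171681742-171681991 (plus strand), that of Prom1 chr5:44101737-44101986 (minus strand), that of Hopx chr5:77095268-77095517 (minus strand) and that of Flt3 chr5:147400490-147400739 (minus strand).
Cd48: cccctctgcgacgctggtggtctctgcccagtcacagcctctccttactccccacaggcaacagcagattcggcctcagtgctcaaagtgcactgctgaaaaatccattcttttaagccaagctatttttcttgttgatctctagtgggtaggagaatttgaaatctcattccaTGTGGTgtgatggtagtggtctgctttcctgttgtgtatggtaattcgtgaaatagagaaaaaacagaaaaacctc
Prom1: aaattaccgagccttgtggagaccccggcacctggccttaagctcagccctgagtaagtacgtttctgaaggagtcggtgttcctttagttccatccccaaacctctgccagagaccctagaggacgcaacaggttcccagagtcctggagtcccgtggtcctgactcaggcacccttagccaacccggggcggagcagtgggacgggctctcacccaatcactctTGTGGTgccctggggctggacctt
Hopx: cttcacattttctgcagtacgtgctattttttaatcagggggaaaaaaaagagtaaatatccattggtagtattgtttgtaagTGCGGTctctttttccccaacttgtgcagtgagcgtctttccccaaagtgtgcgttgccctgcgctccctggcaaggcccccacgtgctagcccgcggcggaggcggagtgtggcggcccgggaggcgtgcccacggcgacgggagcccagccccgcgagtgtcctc
Flt3: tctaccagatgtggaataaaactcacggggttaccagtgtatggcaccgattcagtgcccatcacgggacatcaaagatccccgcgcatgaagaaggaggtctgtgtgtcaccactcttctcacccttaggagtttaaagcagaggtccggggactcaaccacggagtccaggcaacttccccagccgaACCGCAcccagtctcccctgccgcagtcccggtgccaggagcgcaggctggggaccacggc
The first base of the motif lay 76 bases before the start site in Cd48, 24 in Prom1, 167 in Hopx and 61 in Flt3. Prom1 and Hopx each have another annotated start site without these letters. The windows shown for Cd48, Prom1 and Hopx lie inside the annotated spans of their genes, chr1:171681245-171705258, chr5:43993621-44102047 and chr5:77086986-77115123. No window before the outermost start of Cd48 or Prom1 was searched. The GATA motif AGATAA was in 0 of the 14 promoters, beside 9.99% of all promoters. A match describes the letters of the window and is not a measured site.

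CD34 is a sialomucin of stem and progenitor cells and of endothelium. Cd34 was at 7.48 on the array of truncated animal 1 and at 7.37, 5.46 and 5.22 on arrays 1, 2 and 3 of truncated animal 2, against 3.47 in full-length animal 1 and 3.32, 5.28 and 5.19 on arrays 1, 2 and 3 of full-length animal 2. The truncated arrays numbered 1 were far above every other array, the full-length arrays numbered 1 were the lowest, and arrays 2 and 3 of both genotypes met in the middle. Over the animals it averaged 6.75 ± 1.03 in truncated and 4.03 ± 0.80 in full-length mice (SD, n = 2 animals each), a difference of 2.72. Within the arrays numbered 1 the difference was 4.03, and within arrays 2 and 3 it was 0.11. The full-length values on the arrays numbered 1 lay below 4.75, the median of all values, where no level can be read, so these differences are given without a fold. Arrays 2 and 3 of animal 2 differed from array 1 of that animal by -2.03 in the truncated and by 1.92 in the full-length group, so the array numbers ran in opposite directions in the genotypes.

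Prominin 1, the antigen known as CD133, is a membrane glycoprotein of progenitor cell protrusions. Prom1 was at 6.74 in truncated animal 1 and 6.25, 6.36 and 6.47 in truncated animal 2, against 3.14 in full-length animal 1 and 3.50, 5.45 and 5.59 in full-length animal 2. The 4 truncated arrays lay within a narrow band, and the lowest of them was 0.66 above the highest full-length array. The animals averaged 6.55 ± 0.27 in the truncated and 3.99 ± 1.20 in the full-length group, a difference of 2.55. It was 3.18 within the arrays numbered 1 and 0.89 within arrays 2 and 3, where the fold was 1.85. Like Cd34, Prom1 lay below the median of all values on the full-length arrays numbered 1.

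KIT is the receptor of stem cell factor and a tyrosine kinase of progenitors, erythroid precursors and mast cells. Its brighter probe set was at 6.63 in truncated animal 1 and 7.62, 9.92 and 9.96 in truncated animal 2, against 7.46 in full-length animal 1 and 7.74, 10.36 and 10.35 in full-length animal 2. Kit was low on the arrays numbered 1 and high on arrays 2 and 3 in both genotypes. The genotypes overlapped within the arrays numbered 1, and within arrays 2 and 3 both truncated values lay below both full-length values. Arrays 2 and 3 of animal 2 were above its array 1 by 2.32 in the truncated and 2.61 in the full-length group. Of all genes tested 1.23% were above by over 1 log2 unit in both groups, and of the 8 genes here only Kit was. The means over the animals were 7.90 ± 1.79 in truncated and 8.47 ± 1.43 in full-length mice, a difference of -0.57, and it was -0.47 within the arrays numbered 1 and -0.42 within arrays 2 and 3. The direction over the animals turned to 0.69 when the array of truncated animal 1 was left out. The dimmer Kit probe set was also higher on arrays 2 and 3 than on the arrays numbered 1 in both genotypes, with 5.18 in truncated animal 1 and 5.86, 7.43 and 7.54 in truncated animal 2, against 5.49 in full-length animal 1 and 5.74, 8.28 and 8.32 in full-length animal 2.

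FLT3, the other receptor tyrosine kinase of the set, takes the FLT3 ligand and is a marker of multipotent and lymphoid-primed progenitors and of dendritic cell precursors. Flt3 was at 6.55 in truncated animal 1 and 6.58, 7.08 and 7.30 in truncated animal 2, against 5.90 in full-length animal 1 and 6.004, 6.15 and 6.03 in full-length animal 2. The full-length arrays lay close together, and the lowest truncated array was 0.40 above the highest of them. The difference over the animals was 0.79, with 6.77 ± 0.31 in truncated and 5.98 ± 0.11 in full-length mice. It was the smallest among the genes whose arrays did not overlap, at 0.61 within the arrays numbered 1 and 1.10 within arrays 2 and 3. Unlike for Cd34, Prom1 and Hopx, the larger of these values came from arrays 2 and 3.

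**Figure D2:**
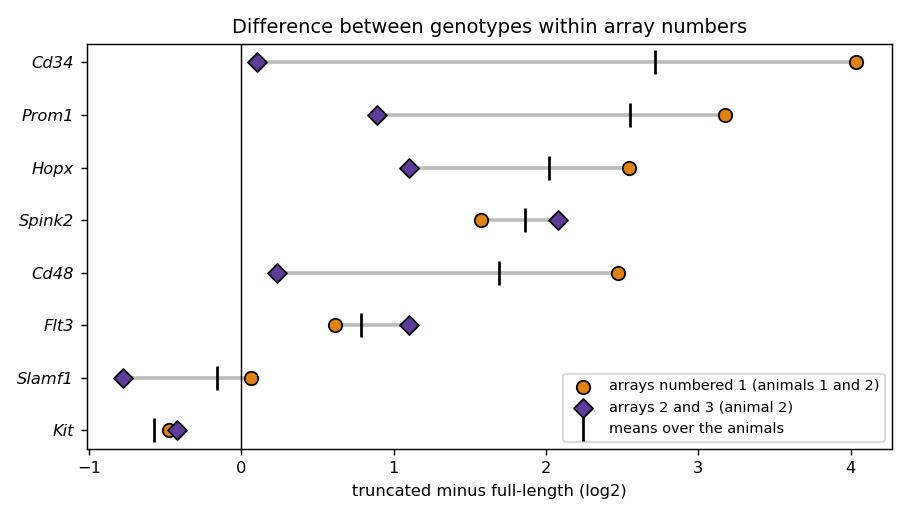
Difference between the genotypes (truncated minus full-length, log2) of the 8 genes past the filter, within the arrays numbered 1 (circles), within arrays 2 and 3 of animal 2 (diamonds) and over the animal means (vertical ticks). Cd34 spans 4.03 to 0.11, whereas Spink2 lies at 1.57 and 2.08 and Kit at -0.47 and -0.42.

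CD48 and SLAMF1 are encoded close together on chromosome 1 and belong to the SLAM family of leukocyte receptors, in which CD48 is the ligand of CD244. Cd48 was at 9.01 in truncated animal 1 and 9.09, 9.57 and 9.66 in truncated animal 2, against 6.64 in full-length animal 1 and 6.52, 9.34 and 9.41 in full-length animal 2. The full-length arrays numbered 1 were low and the other 6 arrays lay together. The animals averaged 9.22 ± 0.30 in the truncated and 7.53 ± 1.26 in the full-length group, a difference of 1.69. It was 2.47 within the arrays numbered 1 and 0.24 within arrays 2 and 3. Without the 2 full-length arrays numbered 1, which were high in erythroid genes and whose removal was tried after seeing the data, the difference was -0.15. The brightest Slamf1 probe set was at 4.99 in truncated animal 1 and 5.08, 6.02 and 5.78 in truncated animal 2, against 4.75 in full-length animal 1 and 5.20, 6.78 and 6.57 in full-length animal 2. As with Kit, the arrays numbered 1 were lower in both genotypes, and the genotypes overlapped over all 8 arrays, though not within arrays 2 and 3. The means were 5.31 ± 0.45 in truncated and 5.47 ± 1.01 in full-length animals, a difference of -0.16, which was 0.06 within the arrays numbered 1, -0.77 within arrays 2 and 3 and 0.16 without the array of truncated animal 1. The other Slamf1 probe sets differed by -0.08 and -0.31, and one of them was below the median of all values on all 8 arrays.

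PROCR, the endothelial protein C receptor, is a marker of long-term stem cells and of endothelium. Its single probe set was at 4.28 in truncated animal 1 and 4.52, 3.60 and 3.54 in truncated animal 2, against 3.90 in full-length animal 1 and 3.77, 3.71 and 3.65 in full-length animal 2. All 8 values were below 4.75, the genotypes overlapped, and no level can be read from them. The identifier of this probe set ends in s_at, which means that it may also match related sequences.

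Hopx had the highest values of its brighter probe set in the truncated group, at 9.65 in truncated animal 1 and 10.06, 9.14 and 9.14 in truncated animal 2, against 7.24 in full-length animal 1 and 7.38, 7.97 and 8.10 in full-length animal 2. The lowest truncated array was 1.04 above the highest full-length one. The means were 9.55 ± 0.15 in truncated and 7.53 ± 0.41 in full-length animals, a difference of 2.02 or 4.06-fold, with 2.55 within the arrays numbered 1 and 1.10 within arrays 2 and 3. The other Hopx probe set, which ends in s_at, was at 8.27, 8.26, 6.46 and 6.39 on the truncated arrays, against 5.46, 5.09, 5.91 and 5.85 on the full-length arrays, and its genotypes did not overlap either. Its difference was 2.99 within the arrays numbered 1 and 0.55 within arrays 2 and 3.

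Spink2 was at 6.70 in truncated animal 1 and 6.51, 6.93 and 7.29 in truncated animal 2, against 4.76 in full-length animal 1 and 5.30, 4.96 and 5.10 in full-length animal 2. The gap between the lowest truncated and the highest full-length array was 1.21, the widest of the 8 genes by their brightest probe set. The means were 6.80 ± 0.15 in truncated and 4.94 ± 0.25 in full-length animals, a difference of 1.86 or 3.63-fold. The full-length values lay near 4.75, the median of all values, so background may limit this fold. It was 1.57 within the arrays numbered 1 and 2.08 within arrays 2 and 3. Leaving out single arrays kept the difference between 1.68 and 1.97.

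**Figure D3:**
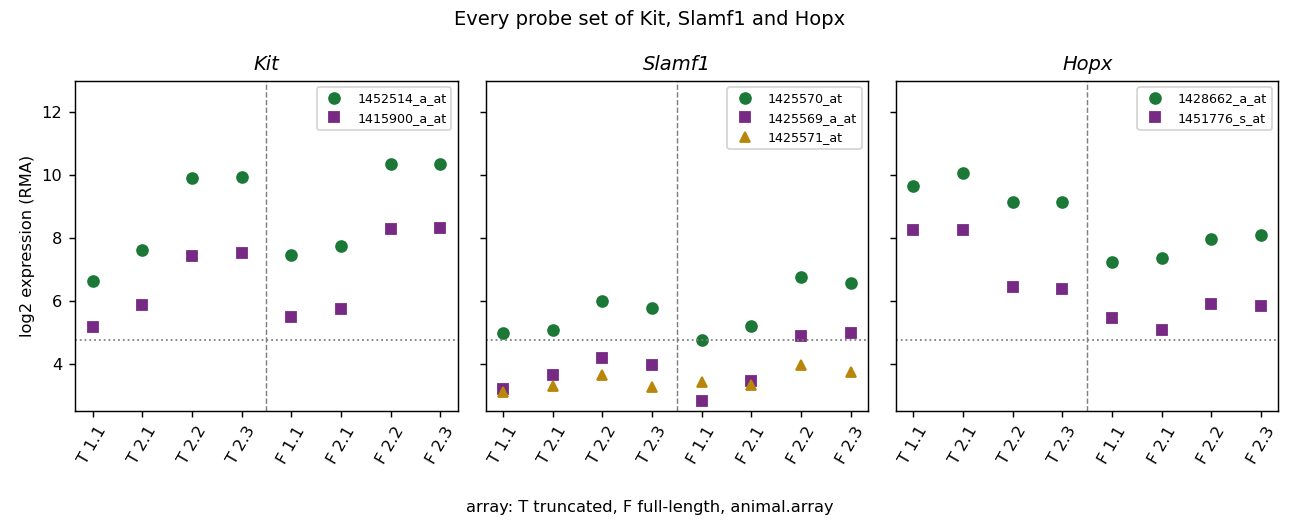
Log2 expression of every probe set of Kit (2), Slamf1 (3) and Hopx (2) on each array, with truncated arrays (T) left of the dashed line and full-length arrays (F) right of it, labelled by animal and array. The dotted line is the median of all values; both Kit probe sets are higher on arrays 2 and 3 in both genotypes, and the Hopx probe sets differ in how far arrays 2 and 3 lie below array 1 in the truncated group.

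In the fit across all genes on the animal means, 0 of 11417 genes (0%) passed at an adjusted p below 0.05 in limma, and so none of the set did, with adjusted p in limma between 0.0819 for Spink2 and 0.939 for Slamf1. At an unadjusted p below 0.05, 1610 genes (14.1%) would be counted, 6 of the 8 among them. Every truncated array was above every full-length array for 4 of the 8 genes and for 10.3% of all genes tested, and every truncated array was below for 0 of the 8 and 8.74% of all. Since the set was chosen with this contrast known, nothing is read from these counts. With animal and array number as a replicate block on 8 arrays, 946 genes (8.29%) passed in limma. These included 3 of the set, Spink2 (adjusted p = 0.0119), Flt3 (adjusted p = 0.0361) and Hopx (adjusted p = 0.0386). With the animal as a random block, 345 genes (3.02%) passed, Spink2 (adjusted p = 0.0151) and Hopx (adjusted p = 0.0372) among them. The first of these fits counts the arrays of an animal apart, so its p-values are too small. The second gives all genes the same correlation between arrays of an animal, 0.307, and rests on 8 arrays from 4 animals. Its p-values may therefore be too small as well. Within the arrays numbered 1 the difference was past 1 log2 unit for 5 of the 8 genes and 14.3% of all genes, and within arrays 2 and 3 for 3 of the 8 and 8.87% of all.

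Ligands and signalling partners of KIT and FLT3 were described as a list, which was also written with earlier results of these arrays known. Of 27 genes 25 had a probe set and 22 passed the filter, of which 14 were higher and 8 lower in truncated mice, and 0 passed in limma. Their median difference was 0.19. The largest differences were those of Sh2b2, an adaptor of receptor kinases, at 2.36, Csf1r, the macrophage colony-stimulating factor receptor and a relative of KIT and FLT3, at 1.49, and Mitf, a transcription factor of mast cells and melanocytes that acts downstream of KIT, at 1.46. Sh2b2 was at 7.15 in truncated animal 1 and 6.83, 6.24 and 6.32 in truncated animal 2, against 4.06 in full-length animal 1 and 3.98, 5.27 and 5.28 in full-length animal 2, without overlap. Mitf differed by 3.28 within the arrays numbered 1 and by -1.83 within arrays 2 and 3. Its levels on the full-length arrays were 3.81 in animal 1 and 3.45, 8.32 and 8.29 in animal 2, beside 6.35 to 7.08 on the truncated arrays. Kitl, the gene of stem cell factor itself, lay below the median of all values on all 8 arrays. Within the arrays numbered 1 the median of the list was 0.60, and within arrays 2 and 3 it was -0.21.

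Of the other SLAM receptors and their adaptors, 10 of 13 genes had a probe set and 5 passed the filter, 4 with higher values, and 0 passed in limma. Ly9, a SLAM family receptor of lymphocytes, was at 5.92 ± 0.34 in truncated and 4.53 ± 0.25 in full-length animals, a difference of 1.40, and its arrays did not overlap. Cd84 differed by 1.18 and, like Cd48, did so on the arrays numbered 1 (1.82) and not on arrays 2 and 3 (-0.02). Slamf7, below the median of all values on all 8 arrays, differed by 0.44. Cd244a, the receptor of CD48, differed by 0.38 over the animals and by 1.23 within arrays 2 and 3. Among the CD34 relatives and selectin partners 3 of 5 genes passed the filter. Podxl, the podocalyxin gene and a sister of Cd34, was at 9.63 ± 0.13 in truncated and 9.73 ± 0.22 in full-length animals. Selplg, the ligand of P-selectin, differed by 1.33 without overlap, and the dim Podxl2 by 0.18. Among the protein C pathway genes that surround PROCR 6 of 9 passed the filter. Itgam, the integrin alpha chain of CD11b, differed by 1.83, coagulation factor F5 by 1.77 and thrombomodulin, Thbd, by 0.84, and none of the 3 overlapped between the genotypes. The Ly6 family had 5 of 14 genes past the filter with a median difference of 0.08, of which Ly6d differed by 0.85, Psca by -0.58 and Ly6e by 0.28. The prominin relatives past the filter were Ttyh3 and Ttyh1, with differences of 0.12 and 0.02; Ttyh2 (0.97) and Prom2 (0.09) did not pass it. Of 11 partners of HOPX and relatives of SPINK2 the 3 past the filter, Hdac2, Srf and Spink4, differed by -0.22, -0.09 and -0.01, and the dim Spink10 and Spink5 by -0.23 and 0.23.

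Other surface genes of stem cells had 22 of 24 symbols with a probe set and 14 past the filter, of which 11 were higher and 3 lower in truncated mice, 0 of them past the threshold in limma. Their median difference was 0.69, and it was 0.88 within the arrays numbered 1 and 0.09 within arrays 2 and 3. Mllt3, a maintenance gene of stem cells that was placed in this list although it encodes a nuclear protein, was at 4.92 ± 0.24 in truncated and 8.25 ± 0.76 in full-length animals, a difference of -3.33 and the largest of the list. Ctnnal1, a catenin-like protein used as a stem cell reporter, was higher by 2.02, and the tetraspanin gene Cd9 by 1.74. Cd9 was at 7.30 in truncated animal 1 and 6.87, 7.19 and 7.06 in truncated animal 2, against 5.26 in full-length animal 1 and 5.20, 5.72 and 5.87 in full-length animal 2, without overlap and with 1.86 and 1.33 within the array numbers. Itga6, an integrin chain, differed by 3.01 on the arrays numbered 1 and by -0.64 on arrays 2 and 3, and Angpt1, the ligand of TEK, by 2.45 and -0.38. Both were picked after their values were seen. Cd27, Vwf, Robo4 and Fgd5 were below the median of all values on all 8 arrays.

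Of 29 transcription factors of stem cells 25 passed the filter, of which 14 were higher and 11 lower in truncated mice, with a median difference of 0.19, and 0 passed in limma. Fli1, an ETS factor of stem cells, megakaryocytes and endothelium, was at 7.72 in truncated animal 1 and 8.92, 9.46 and 9.33 in truncated animal 2, against 3.67 in full-length animal 1 and 3.66, 9.40 and 9.43 in full-length animal 2. As for Cd48, the full-length arrays numbered 1 were apart from the other 6. Gfi1, a repressor that restrains stem cell cycling and is needed for neutrophils, was at 6.67 ± 0.03 in truncated and 3.92 ± 1.10 in full-length animals, and its arrays did not overlap. Egr1, an immediate-early factor that keeps stem cells quiescent, differed by -1.43 over the animals and by -2.30 and 0.51 within the array numbers. Hlf, a factor of long-term stem cells picked after its values were seen, was at 7.41, 8.30, 4.78 and 5.11 on the truncated arrays, against 4.29, 4.54, 7.65 and 7.66 on the full-length arrays, so that its difference was 3.44 within the arrays numbered 1 and -2.71 within arrays 2 and 3. Mecom and Meis1 lay below the median of all values on all 8 arrays.

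**Figure D4:**
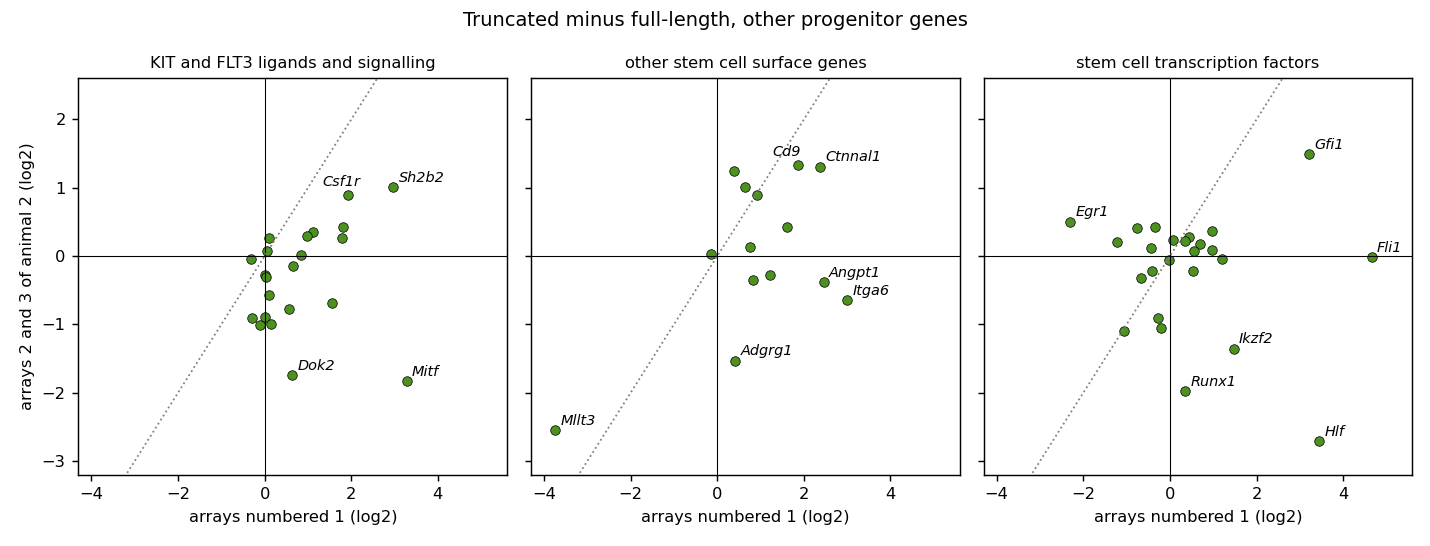
Difference between the genotypes (truncated minus full-length, log2) within the arrays numbered 1 (horizontal) and within arrays 2 and 3 of animal 2 (vertical) for genes past the filter in 3 lists. Genes on the dotted line differ equally in both; Fli1 lies at 4.66 and -0.02, Hlf at 3.44 and -2.71, and Mllt3 at -3.74 and -2.55.

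The spleen holds other cells that carry the same markers, and in a bulk sample fewer cells of a type and less RNA per cell cannot be told apart. Markers of mast cells and basophils, which keep KIT, had a list mean of 7.20 to 7.63 on the truncated arrays, against 6.67 to 8.68 on the full-length arrays, and 8 of the 9 with a probe set passed the filter. Of them Cpa3 was at 11.92, 11.67, 12.18 and 12.13 on the truncated arrays, against 7.11, 6.90, 11.84 and 11.90 on the full-length arrays. Tpsab1 differed by -2.35 and Mcpt8 by 2.09. Mcpt4 was below the median of all values on all 8 arrays. Within the full-length group the list was higher on the arrays where Kit was high, and within the truncated group it was lower there. Endothelial markers, which go with Cd34 and Procr in normal tissue, had a list mean of 4.87 to 5.20 on the truncated arrays, against 4.56 to 5.10 on the full-length arrays. Of these 10 genes 6 passed the filter, 2 of them higher and 4 lower in truncated mice. Cdh5, Tie1 and Emcn, defining genes of that cell type, were below the median of all values on all 8 arrays. Plvap, Kdr and Egfl7 were above it on all 8 arrays, at 5.23 to 6.09 for Kdr and 7.88 to 8.87 for Egfl7, and Pecam1, Stab2, Esam and Tek were above it on some. Pecam1 differed by 1.70, Tek, which did not pass the filter, by 1.71 and Plvap by -2.06. Pecam1 followed the arrays much as Cd34 did, at 6.62, 6.83, 5.03 and 5.21 on the truncated arrays, against 4.09, 4.43, 5.02 and 5.03 on the full-length arrays. The endothelial list as a whole did not. Within the arrays numbered 1 Pecam1 differed by 2.47, but the median of the 6 genes past the filter was -0.31.

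Myeloid and erythroid list means differed between arrays, and in limma 0 genes of any of the 11 marker lists passed. The 5 primary granule markers with a probe set averaged 10.66 to 11.49 on the truncated arrays, against 4.94 and 4.84 on the full-length arrays numbered 1 and 9.99 and 10.03 on full-length arrays 2 and 3. The list mean was thus near the median of all values on 2 of the 8 arrays, the same 2 on which the erythroid list was highest. The largest differences were those of cathepsin G, Ctsg (5.09), myeloperoxidase, Mpo (4.75), and proteinase 3, Prtn3 (4.68). All 9 neutrophil markers were higher in truncated animals, with list means of 10.91 to 11.17 on the truncated arrays, against 7.11 to 9.38 on the full-length arrays. Lactoferrin, Ltf, differed by 4.197, Camp by 4.08 and Lcn2 by 3.45, without overlap. The 10 monocyte and macrophage markers were higher as well, except for Cx3cr1, which was level (0.003) with overlapping arrays. Their list means were 8.82 to 9.04 on the truncated arrays, against 6.65 to 7.44 on the full-length arrays, and Vcam1 (3.74), Mrc1 (2.87) and F13a1 (2.36) differed most. The erythroid list, with 8 of 10 genes on the array, was at 9.44 and 9.40 on the truncated arrays numbered 1 and 8.39 and 8.42 on truncated arrays 2 and 3, against 10.99 and 11.01 on the full-length arrays numbered 1 and 8.40 and 8.48 on full-length arrays 2 and 3. Its largest differences were those of Trim10 (-2.14), Ank1 (-1.40) and Klf1 (-1.16). Cd34, Prom1, Cd48 and Hopx were each lowest on the 2 arrays where the erythroid list was highest. Flt3 was too, but its 5.90 and 6.004 lay just below the 6.15 and 6.03 of full-length arrays 2 and 3. Spink2 was not, at 4.76 and 5.30 on these 2 arrays and 4.96 and 5.10 on full-length arrays 2 and 3. Kit was lower on the 4 arrays numbered 1, where the erythroid list was higher. The part of these cell types in the differences of the set was not tested. The mean of the 6 stromal markers was 5.18 to 5.27 on the truncated arrays, against 4.32 to 5.11 on the full-length arrays, with members far apart in opposite directions. Cxcl12, the stromal chemokine whose receptor retains stem cells in their niche, was at 8.10, 8.13, 8.78 and 8.78 on the truncated arrays, against 4.26, 3.78, 4.67 and 3.84 on the full-length arrays, without overlap (adjusted p = 0.0666 in limma). Decorin, Dcn, was at 5.29, 5.05, 4.74 and 4.56 on the truncated arrays, against 8.94, 8.47, 4.79 and 4.92 on the full-length arrays. Col1a2 differed by 0.34. T and NK cell markers had list means of 4.50 to 5.01 on the truncated and 4.46 to 4.86 on the full-length arrays, and the largest differences were those of Thy1 (0.80), Cd247 (-0.40) and Cd5 (0.35), of which Cd5 was dim on all 8 arrays. Dendritic cell markers had list means of 5.02 to 5.48 on the truncated and 4.96 to 5.06 on the full-length arrays, and Tcf4 (1.15) and Siglech (0.23) differed most, before Zbtb46 (0.098) and the dim Cd209a (-0.098), which tied. B cell markers were at 4.89 and 4.71 on the truncated arrays numbered 1 and reached 5.72 and 5.79 on truncated arrays 2 and 3, against 4.66 to 4.91 on the full-length arrays, with the largest differences in Cd79b (1.34), Cd79a (0.72) and Blk (0.22, below the filter). Megakaryocyte markers were at 5.98 to 6.18 on the truncated and 5.27 to 5.73 on the full-length arrays, and Pf4 (1.52), Ppbp (0.98, below the filter) and Treml1 (0.88) differed most.

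**Figure D5:**
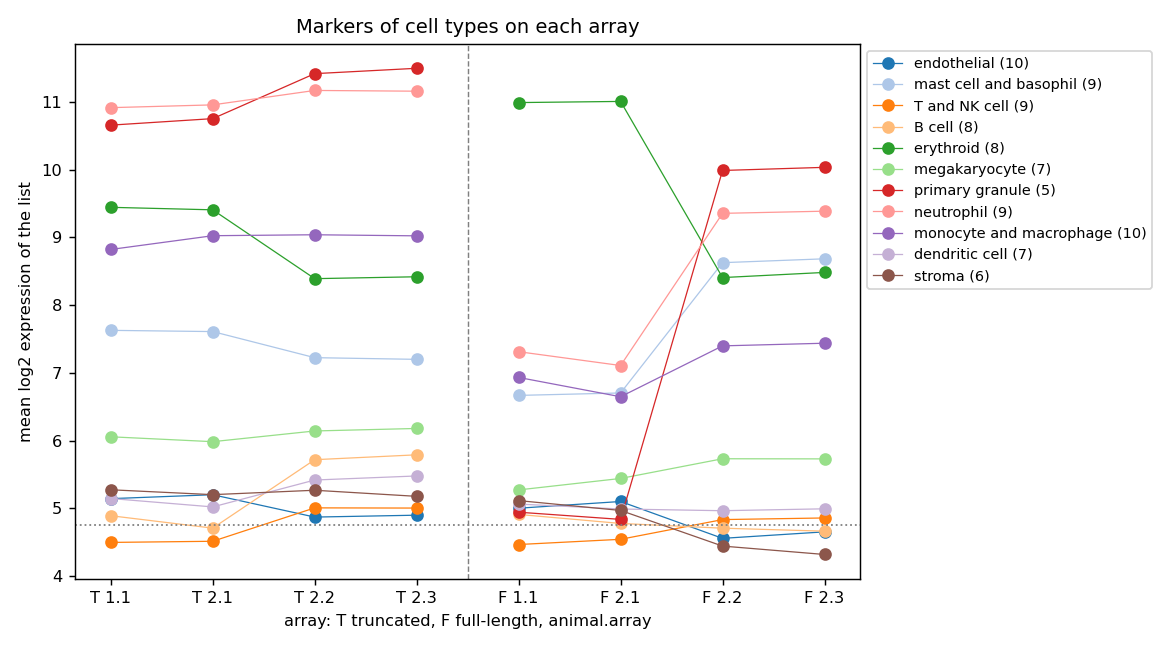
Mean log2 expression of 11 lists of cell type markers on each array (number of genes with a probe set in brackets), truncated arrays (T) left and full-length arrays (F) right of the dashed line. Thin lines only join the points of a list; the primary granule list is at 4.94 and 4.84 on the full-length arrays numbered 1 and at 9.99 and 10.03 on full-length arrays 2 and 3.

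Genes with the most similar profile over the 8 arrays were found by the root mean square difference in log2 units after centring each gene on its own mean. For Cd34 these were Ear3, an eosinophil-associated ribonuclease (0.17), the chemokine gene Ccl24 (0.26) and Gpx3, a secreted glutathione peroxidase (0.30), beside a spread of Cd34 around its own mean of 1.43. Ear3 was at 8.12, 8.24, 6.10 and 5.92 on the truncated arrays, against 3.74, 3.82, 5.71 and 5.77 on the full-length arrays. For Kit, which had the same spread of 1.43, they were Stox2 (0.27) and the interferon-inducible genes Oas1a (0.28) and Usp18 (0.38). Oas1a was at 6.22, 6.50, 8.83 and 8.93 on the truncated arrays, against 6.39, 6.48, 9.003 and 8.98 on the full-length arrays. The nearest profiles to Prom1 were Fcna (0.21), Chst12 (0.21) and Mapk13 (0.23), and those to Cd48 were Snx10 (0.12), AA467197 (0.13) and Phgdh (0.15). Hopx was closest to Tifab (0.11), Retreg1 (0.13) and Prkd3 (0.14). Spink2 was closest to Zc2hc1a (0.15), Xdh (0.22) and Phyh (0.22), Flt3 to Abcg3 (0.11), Slc44a1 (0.14) and Man1c1 (0.14), and Slamf1 to Pnma1 (0.14), Ackr1 (0.14) and Gcnt1 (0.14).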

How the data were processed

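The deposited table holds log2 expression of 45101 probe sets on 8 arrays. The authors made it with RMA, per the submitters' processing notes, and its version is not given in the sources used here. That the scale is log2 follows from their range, as RMA gives log2. The median of each array lay between 4.71 and 4.78. The number of arrays limits the precision, and a dim value is no sign of absence.

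GEO's platform table gave 34945 probe sets 1 gene symbol, 932 several and 9160 none, and 64 were controls; those with 1 symbol were used. Of their 18194 gene identifiers, 18032 were found in the RefSeq table of GRCm38.p6. The probe set with the highest mean stood for a gene, and genes with at least 2 of 4 animals above the median of all values (4.75) were kept. Arrays were averaged per animal, and 2 truncated animals were compared with 2 full-length animals in limma 3.58.1 (lmFit, eBayes; R 4.3.3), and p-values were adjusted by Benjamini-Hochberg over 11417 genes, with 2 residual and 3.24 prior degrees of freedom, so that the p-values rest on the spread between these few animals. The labels do not say whether arrays of an animal were separate extractions. The fit was tested on simulated data.

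The members and lists were chosen with earlier results of these data known. All 10 genes are named; of the lists, the up to 3 genes with the largest difference; and the 3 genes nearest in profile to each member. Other genes are named as picked after their values were seen, or as examples of dim genes or of relatives of a member.

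The labels number animals and arrays alike in both genotypes. Arrays of the same number deviated together from their genotype mean, with correlations across genes of 0.145 to 0.301 for the 4 pairs. Pairs of unlike number were not compared, so these correlations do not show that the numbers pair the arrays. The fit with the number as a replicate block is given beside the results that it changes. The alternatives are described with the limits.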

Additional observations from a re-analysis of the deposited data

Results flagged for a closer look

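The mean of the 3 18S ribosomal control probe sets was far from the other arrays of its genotype on the array of truncated animal 1 (9.64) and on that of full-length animal 1 (8.11). The gap to the next array was 0.907 of the range of the 4 truncated arrays and 0.888 of that of the 4 full-length arrays, above Dixon's critical value for 4 values. No probe set of the 9 genes was apart by this measure on any array, in 28 groups of 4 arrays checked in all. About 1 in 20 groups of 4 independent values is apart by chance. The arrays of animal 2 are not independent, so this rate may not hold here. A group split into pairs of arrays, such as the truncated arrays for Cd34, cannot be flagged by this measure. Without animal 1 of both genotypes, a choice made after seeing the data that leaves 1 animal per genotype and no test, the difference was 1.42 for Cd34, 1.51 for Prom1, 1.63 for Hopx and 1.79 for Spink2.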

How the results depend on the processing

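Signal over background limits Procr, 2 of the 3 Slamf1 probe sets and the full-length values of Cd34, Prom1 and Spink2, which lie near or below the median of all values. The count of genes past the threshold in limma was 0 on the animal means (1610 at an unadjusted p below 0.05). It was 345 with the animal as a random block, 946 with the replicate block on 8 arrays, 3009 with only the array numbered 1 of each animal, 3 with a robust prior and intensity trend, and 666 without full-length animal 2. Leaving out single arrays gave 0 to 428, with 2 without array 2 or array 3 of truncated animal 2, and 338 without array 2 and 428 without array 3 of full-length animal 2; for the arrays of animal 1 the lone animal left is assumed to vary like the others. The other settings run gave 0. The fit on the arrays numbered 1 takes them as 2 animals per genotype, which was not tested, so its count may be too high. The number of the 8 genes with higher values in truncated animals was 5 to 8 over all 21 alternatives. The number without overlap, 4 of 8 with all arrays, was 7 within arrays 2 and 3 of animal 2 and 7 without full-length animal 2, where fewer arrays are compared, and 4 to 6 otherwise. The share of all genes without overlap was computed with all arrays only, so nothing is read from the counts under the other settings. Cd34, Prom1, Flt3, Hopx and Spink2 were higher in truncated animals under all 21 alternatives, with ranges of 0.11 to 4.03, 0.89 to 3.40, 0.57 to 1.10, 1.10 to 2.55 and 1.57 to 2.08. Cd48 turned to -0.15 without the 2 full-length arrays in which erythroid genes were high, a choice made after seeing the data, where Cd34 was 1.51, Prom1 1.03, Kit -2.46 and Slamf1 -1.36. Kit ranged from -1.58 to 0.69 when single arrays were left out and was 0.44 without full-length animal 2. Slamf1 ranged from -0.87 to 0.16 when single arrays were left out, and was 0.061 with only the arrays numbered 1 and 0.56 without full-length animal 2. The cause of these turns was not tested.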
